A study of Mus musculus with 36 samples.

Results

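In control myotubes, far more genes rose than fell by over 1 on the log2 scale during the 3 h after electrical pulse stimulation (EPS), and most genes induced by stimulation were still above their resting level at the end. The comparison is between 6 EPS 3h and 6 EPS 0h libraries, 12 of the 36 libraries of the series. The cells were myotubes of C2C12, a mouse myoblast line whose cells fuse into contractile, multinucleate myotubes when serum is withdrawn. All of them carried a negative control antisense locked nucleic acid (LNA), transfected on day 3 of differentiation, and on day 4 they were stimulated for 3 h through carbon electrodes and harvested immediately (EPS 0h) or 3 h later (EPS 3h). Rest libraries (6) came from wells with the electrodes in place but without pulses, and they served here to place each change. The series also holds Rest, EPS 0h and EPS 3h libraries from wells given an LNA against the long noncoding RNA *Tug1* (*Tug1* KD). Those libraries entered the filter on low counts and the shared fit. The labels give 1 Rest group and no second one matched to the recovery time, so the time in recovery and the extra time in culture cannot be told apart. The libraries were chosen by their titles, and each was made from a well of its own. The wells came from repeated experiments that the labels do not name, and replicates 1 to 3 and 4 to 6 are given as sets because the libraries part that way.

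Contracting muscle switches on genes in waves. Immediate early genes such as *Fos*, *Egr1* and *Nr4a1* need no new protein and usually peak and decay early, and they encode transcription factors that act on later genes. Heat, contraction and misfolded protein activate heat shock factor 1, which binds inverted repeats of nGAAn in the promoters of chaperone genes. AP-1 dimers of Fos and Jun proteins bind a separate palindrome and drive many delayed genes for secreted factors, proteases and their inhibitors.

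Counts on genes ran from 17694700 to 22474726 per EPS 0h library and from 17451381 to 22812123 per EPS 3h library, and levels are given in RPM, TMM-scaled read counts relative to library size. The first principal component held 40.8% of the variance, and every EPS 3h library lay above every EPS 0h library on it. The margin was narrow, with EPS 3h replicate 5 at -3.393 and EPS 0h replicate 1 at -4.849. Within each group this component also parted the replicate sets. At EPS 0h, replicates 1 to 3 lay at -9.869 to -4.849 and replicates 4 to 6 at -42.08 to -35.06. At EPS 3h, the same sets lay at 24 to 51.68 and at -3.393 to 13.73. EPS 3h replicate 3 stood apart: its deviations from the group mean correlated at -0.255 and -0.382 with those of replicates 1 and 2, whereas replicate 3 of EPS 0h gave 0.403 and 0.266. Myotube markers such as *Myog*, *Ckm* and *Acta1* summed to 15100 to 18400 RPM at EPS 0h and 15700 to 20700 RPM at EPS 3h, and proliferation markers to 242 to 291 and 195 to 275 RPM. Markers of unfused myoblasts and reserve cells summed to 416 to 480 RPM at EPS 0h and 353 to 451 RPM at EPS 3h, after 392 to 465 RPM at Rest. In RNA from whole wells, fewer cells of a type and less RNA per cell cannot be told apart.

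Of 13995 genes tested with edgeR's quasi-likelihood test, 486 (3.47%) were higher and 48 (0.343%) lower at EPS 3h than at EPS 0h by more than 1 on the log2 scale at a false discovery rate (FDR) under 0.01. These are the genes called below, and 91% of them were higher. At an FDR under 0.05 without a limit on size, 1354 genes (9.67%) were higher and 963 (6.88%) lower, a split that turned to 1031 higher and 1752 lower when libraries were scaled by their totals alone and to 1771 and 1520 with a block for replicates 1 to 3 against 4 to 6. The median log2 fold change (log2FC) over all genes tested was -0.01. The sign of the change was shared by the sets of replicates 1 to 3 and 4 to 6 for all 534 called genes. The same libraries had chosen these genes, so a shared sign is largely built in and is not a replication. The calls lay at low levels: the genes that rose had a median of 1.15 RPM at EPS 0h and 4.12 RPM at EPS 3h, and 206 of 486 reached a mean of 5 RPM at EPS 3h. Near the size limit, 47 of the risers lay within 0.1 of it and a further 46 genes with an FDR under 0.01 lay as closely below it.

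To say what became of the stimulation response, each gene was placed by its change from Rest to EPS 0h, from EPS 0h to EPS 3h and from Rest to EPS 3h, contrasts that share libraries and are not independent. At EPS 0h, 872 genes (6.23%) were called higher and 308 (2.2%) lower than at Rest, and at EPS 3h 1346 (9.62%) were called higher and 659 (4.71%) lower than at Rest. Of the 872 induced genes, 5 were called lower at EPS 3h than at EPS 0h and 231 were called higher again, while 801 were still called above Rest. Among those 801, 334 persisted, meaning that they were called above Rest at both times and the 95% interval of the change between them lay within 1 of 0 on the log2 scale, and 302 of the 872 could not be placed. Of the 308 repressed genes, 14 recovered, 7 fell further, 158 held their lower level and 129 could not be placed, while 225 were still called below Rest and 83 no longer were. Among genes not called at EPS 0h, 200 were newly called as rising and 26 as falling, to a called difference from Rest at EPS 3h. Without EPS 3h replicate 3 the declining genes numbered 3 instead of 5.

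**Figure D1:**
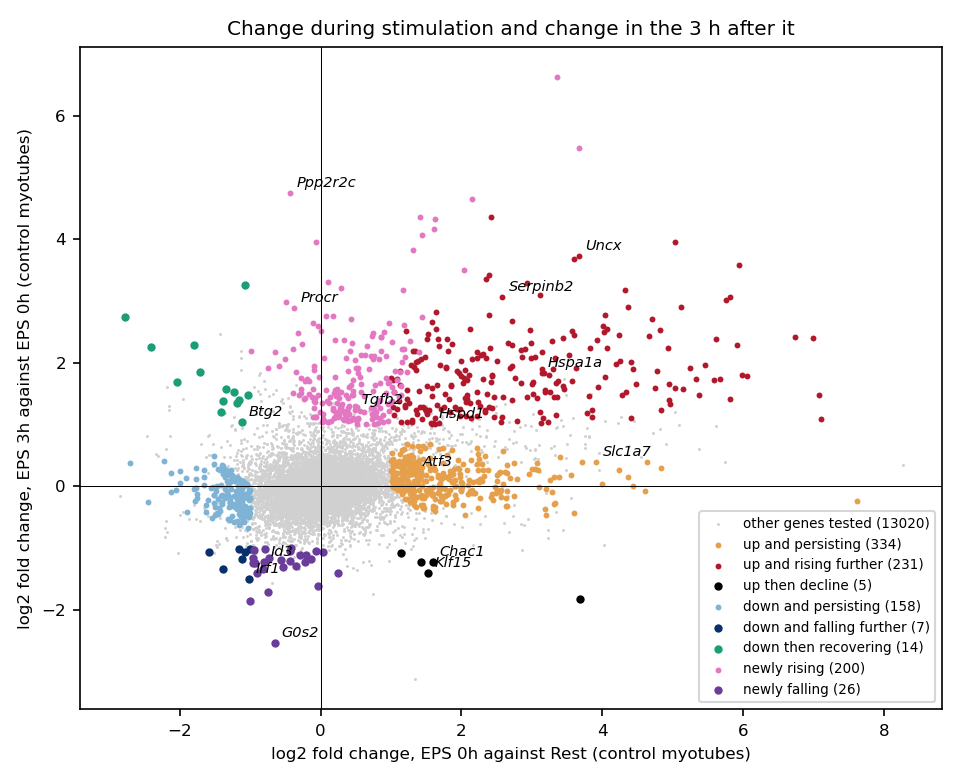
Each dot is a gene tested, with its log2FC from Rest to EPS 0h on the x axis and from EPS 0h to EPS 3h on the y axis, coloured by class with the number of genes in brackets. The 231 genes that rose again after stimulation lie in the upper right, and the 5 declining genes in the lower right.

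**Figure D2:**
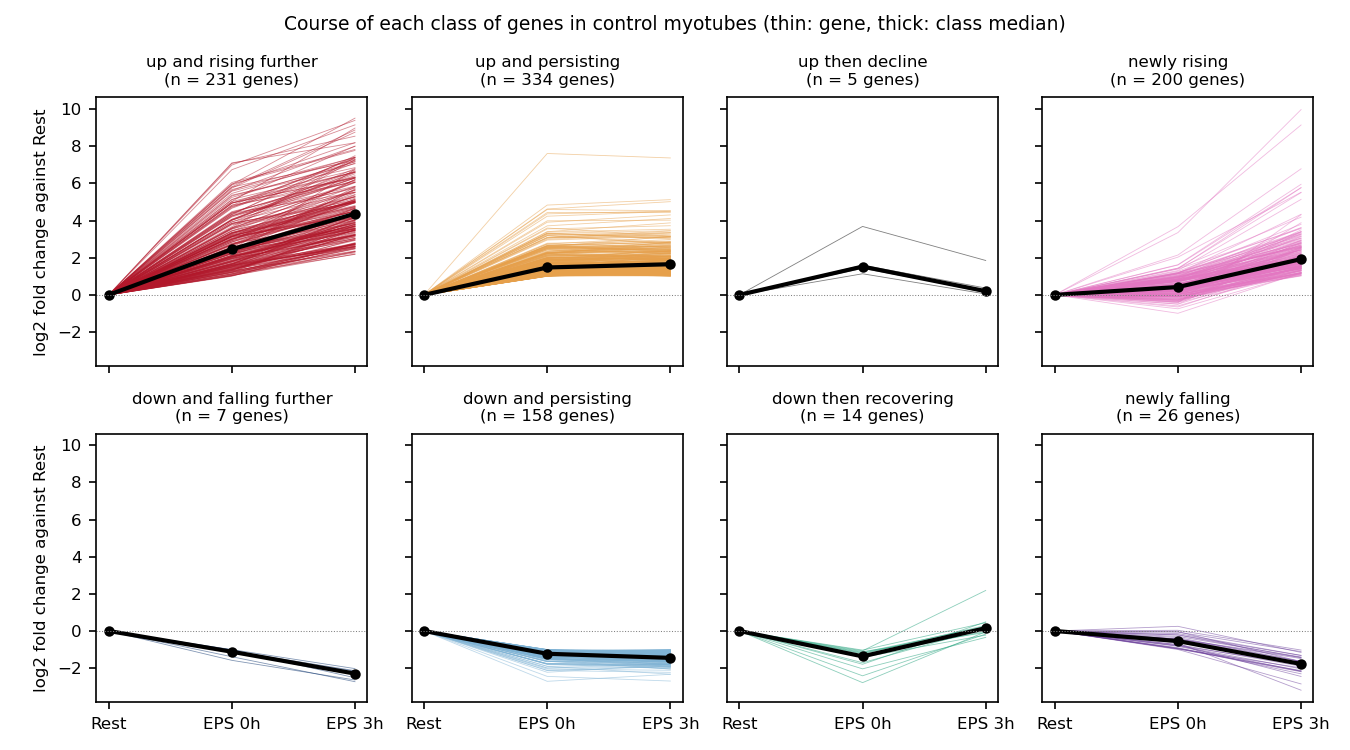
Log2FC against Rest at EPS 0h and EPS 3h, where thin lines are genes and thick lines class medians. The genes rising further went from a median of 2.46 to 4.37, the newly rising from 0.42 to 1.93, and the declining from 1.52 to 0.20.

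The declining genes were *Klf15*, *Chac1*, *Wnt2b*, *Gm10388* and *Gm15663*, with a median log2FC of -1.23 after a rise of 1.52. *Chac1* encodes a glutathione-degrading enzyme of the integrated stress response and lies on chromosome 2 (GRCm39, 119180757 to 119184866, plus strand). Its level was 50.6 to 97.95 RPM at Rest (median 68.35), 147.3 to 320 RPM at EPS 0h (median 187.7) and 60.1 to 145.9 RPM at EPS 3h (median 78.3). Every EPS 3h library lay under every EPS 0h library, and the log2FC was -1.23 (SE 0.237, FDR = 0.00024). Genes named for their class were picked without overlap between the groups compared. Between EPS 3h and EPS 0h, 384 of the 534 called genes had none. Over all 13995 genes tested, 653 lay higher and 367 lower without overlap. *Klf15*, a Krüppel-like factor of muscle amino acid and lipid metabolism (chromosome 6, 90438998 to 90452220), went from 4.86 RPM (median, 2.21 to 6.54) at Rest to 11.0 (8.93 to 22.4) and back to 5.13 (3.36 to 6.68). Its log2FC from EPS 0h to EPS 3h was -1.40 (SE 0.306, FDR = 0.00103), without overlap. *Wnt2b*, a secreted Wnt ligand chosen after its values were seen, was at 1.42 to 3.16 RPM at EPS 0h and 0.548 to 1.41 RPM at EPS 3h, a log2FC of -1.09 (FDR = 0.00212). Some induced genes fell by less than the limit. *Myf5*, a myogenic determination factor, dropped from 33.3 ± 5.65 to 17.0 ± 4.34 RPM, and *Ppp1r3c*, which targets protein phosphatase 1 to glycogen, from 23.95 ± 4.21 to 12.4 ± 3.08 RPM (SD, n = 6), with an FDR of 0.000588 and 0.000224. Both were chosen after their values were seen. At an FDR under 0.05, 28 of the 872 induced genes (3.21%) were lower and 348 (39.9%) higher, where all genes tested gave 6.88% and 9.67%, though the EPS 0h libraries that chose the 872 also enter this change.

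The genes that rose again included the inducible chaperones. *Hspa1b* and *Hspa1a* encode the stress-inducible HSP70 protein, stand side by side on chromosome 17 (35175412 to 35178214 and 35188166 to 35191132, minus strand), and are so alike that reads may have been split between them. *Hspa1b* was at 1467 to 2427 RPM at Rest (median 1882), 5511 to 7996 RPM at EPS 0h (median 6562) and 14580 to 19580 RPM at EPS 3h (median 18010). *Hspa1a* was at 87.5 to 323.2 RPM (median 133.9), 1173 to 1958 RPM (median 1441) and 4195 to 6510 RPM (median 5391) in the same groups. The 3 groups did not overlap for either gene, and the log2FC after stimulation was 1.40 (SE 0.143, FDR = 5.37e-09) and 1.83 (SE 0.248, FDR = 1.14e-06). *Hspd1*, which encodes the mitochondrial chaperonin HSP60 and was chosen after its values were seen, went from 2822 ± 211 to 5675 ± 703 RPM (SD, n = 6), a log2FC of 1.01 (FDR = 3.77e-08). It shares a divergent promoter with *Hspe1*, its co-chaperonin, and the strand setting of the counting is not given in the sources used here, so reads where the 2 genes overlap may have been counted for either.

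The 250 bases before the start of the canonical transcript are shown for these 3 genes, the protein-coding risers of highest RPM, uncorrected for length, whose promoter holds the heat shock letters GAANNTTC, which stand in capitals. Genes of a single chromosome had been left out of this choice. The sequences are from GRCm39 at the starts that GENCODE gives.
*Hspa1b* (chr17:35178215-35178464, minus strand): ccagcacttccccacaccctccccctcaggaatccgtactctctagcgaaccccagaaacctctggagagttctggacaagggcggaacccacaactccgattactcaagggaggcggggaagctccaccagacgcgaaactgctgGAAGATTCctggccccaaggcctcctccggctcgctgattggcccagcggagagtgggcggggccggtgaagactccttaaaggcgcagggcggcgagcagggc
*Hspa1a* (chr17:35191133-35191382, minus strand): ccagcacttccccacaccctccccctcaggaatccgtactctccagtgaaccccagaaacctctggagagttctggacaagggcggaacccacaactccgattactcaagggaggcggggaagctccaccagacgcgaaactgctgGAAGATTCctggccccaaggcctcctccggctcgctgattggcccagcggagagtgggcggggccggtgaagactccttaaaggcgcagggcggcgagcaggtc
*Hspd1* (chr1:55127184-55127433, minus strand): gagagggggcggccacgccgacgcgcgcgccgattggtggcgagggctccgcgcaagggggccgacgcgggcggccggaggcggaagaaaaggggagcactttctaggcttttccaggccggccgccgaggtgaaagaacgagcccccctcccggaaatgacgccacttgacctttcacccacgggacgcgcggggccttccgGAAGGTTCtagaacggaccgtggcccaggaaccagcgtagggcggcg
In *Hspa1b* and *Hspa1a* the 2 stretches differ at 3 of 250 bases, and the capitals lie 97 bases before the start in both. In *Hspd1* they lie 40 bases before the start within a run of at least 3 units, each GAA or its complement TTC, spaced as in the shorter letters. A run of 3 units was found in the 300 bases from 250 before to 50 after the start in 8 of 226 genes rising further (3.54%), 1 of 197 newly rising genes (0.508%) and 72 of 13945 genes tested (0.516%). The shorter letters GAANNTTC, which also lie within the run, were in 20 of 226 (8.85%) and 841 of 13945 (6.03%). A match is a description of the sequence and not a site.

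Of 27 heat shock and chaperone genes tested, 20 rose and 0 fell at an FDR under 0.05 from EPS 0h to EPS 3h, with a median log2FC of 0.56 against -0.01 over all genes. At that FDR, 9.67% of all genes tested rose. The list was drawn up with earlier results of these data known, so the count is a description. At EPS 0h, 23 of the 27 had already been higher than at Rest, against 20.5% of all genes tested higher and 18.4% lower at that threshold, so most of the list had risen during stimulation. The risers included *Hsph1* (an HSP110, log2FC 0.87), *Dnajb1* (an HSP40 co-chaperone, 0.93), *Hspb1* (HSP27, 0.81), *Hsp90aa1* (0.77) and *Bag3*, a co-chaperone of tension-damaged proteins in the Z-disc (0.68). The constitutive members *Hspa8* and *Hsp90ab1* rose by a log2FC of 0.39 and 0.42. The count was 18 when scaled by library totals alone, 16 in replicates 4 to 6 alone and 21 without EPS 3h replicate 3.

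Beyond the chaperones, the second rises named by size were of genes with little RNA at Rest. *Efr3b*, which anchors phosphatidylinositol 4-kinase at the plasma membrane (chromosome 12, 4012486 to 4088957, minus strand), was at 0.172 to 0.576 RPM at Rest, at 1.99 to 7.10 RPM at EPS 0h (median 3.91) and 31.5 to 71.3 RPM at EPS 3h (median 44.5). The groups lay far apart, and the log2FC after stimulation was 3.68 (SE 0.243, FDR = 5.9e-13), beside 3.60 during it. *Uncx*, a homeobox factor, went from 0.173 to 0.917 RPM at EPS 0h to 5.59 to 13.45 RPM at EPS 3h (log2FC 3.72, FDR = 1.3e-09), and *Ubtfl1* from 0.087 to 0.944 RPM to 1.76 to 10.4 RPM (3.96, FDR = 3.47e-08). Genes this low at Rest passed the filter on low counts through the groups in which they were high. Genes at higher levels also rose again, among them *Arid5b*, a chromatin cofactor (246.9 ± 56.0 to 598.3 ± 133 RPM), and *P2rx7*, an ATP-gated ion channel (192.1 ± 15.7 to 393.6 ± 59.7 RPM, SD, n = 6), with a log2FC of 1.28 and 1.03 (FDR = 4.86e-06 and 3.97e-05). *Serpinb2*, an inhibitor of plasminogen activators, went from 2.10 to 5.85 RPM to 15.3 to 47.2 RPM (log2FC 3.06, FDR = 1.68e-08). These last 3 were chosen after their values were seen.

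**Figure D3:**
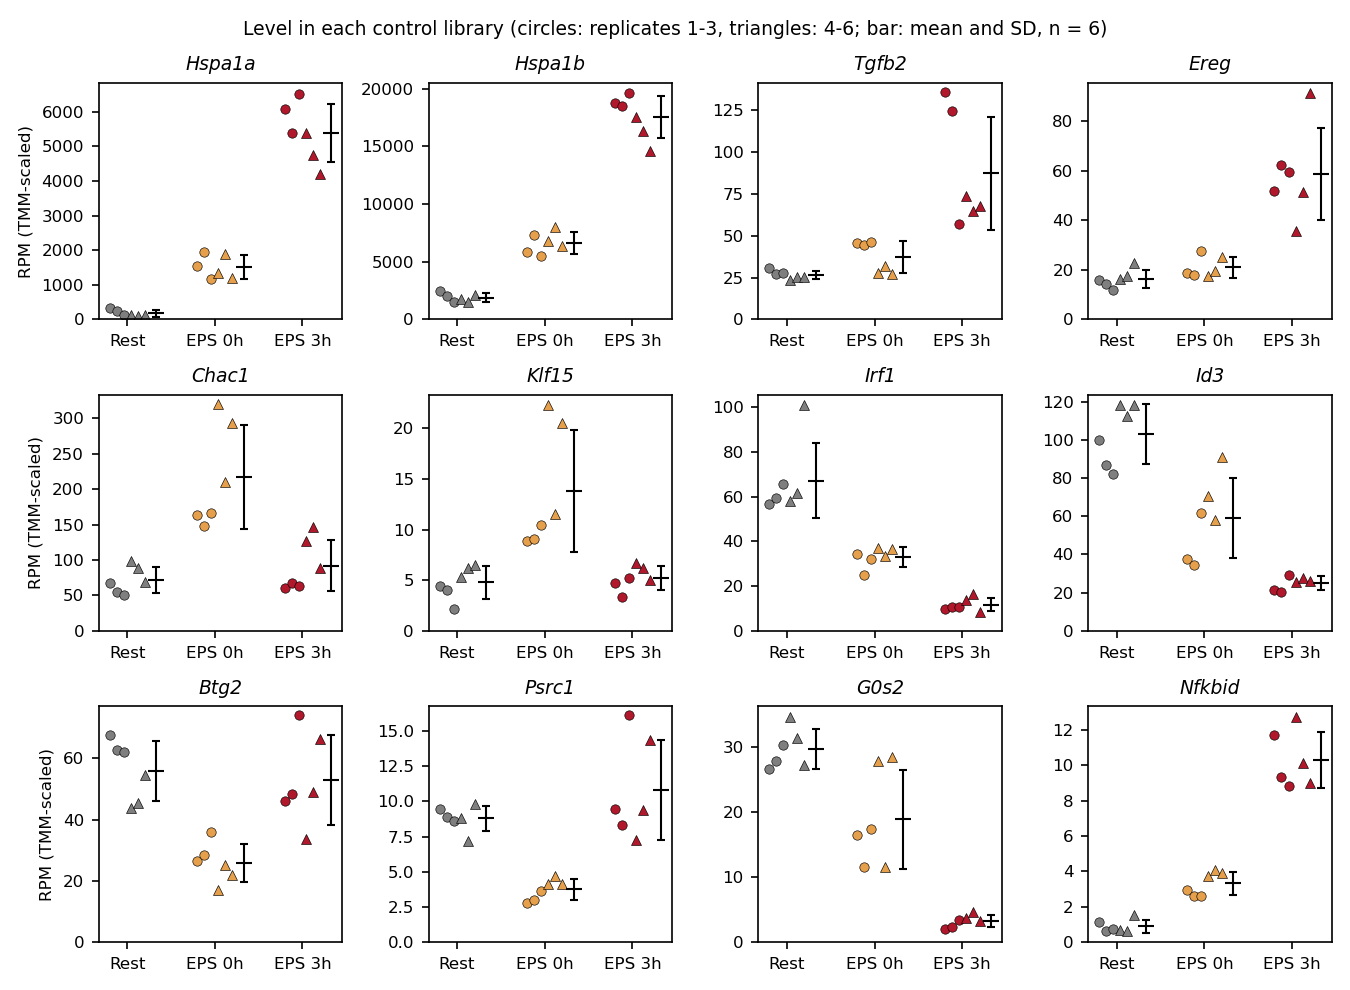
TMM-scaled RPM (y axis, from 0) of 12 genes in each control library by group, with circles for replicates 1 to 3, triangles for replicates 4 to 6, and bars for mean and SD (n = 6). *Hspa1a* and *Hspa1b* step up at each stage, *Chac1* and *Klf15* return towards Rest, and the means of *Irf1*, *Id3* and *G0s2* sink with each stage. For *Id3* and *G0s2* the Rest and EPS 0h libraries overlap.

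Newly rising genes, 200 in all, had a median log2FC of 0.42 during stimulation and 1.53 after it. Growth factor genes were among them. *Ereg*, a ligand of the EGF receptor family (chromosome 5, 91222157 to 91241505), was at 11.8 to 22.6 RPM at Rest, at 17.6 to 27.7 RPM at EPS 0h (median 19.1) and 35.7 to 91.3 RPM at EPS 3h (median 55.7), a log2FC of 1.48 (SE 0.209, FDR = 2.2e-06). *Tgfb2*, a TGF-beta ligand (chromosome 1, 186354985 to 186438294, minus strand), went from 27.2 to 46.4 RPM at EPS 0h (median 38.2) to 57.0 to 135.7 RPM at EPS 3h (median 70.9), a log2FC of 1.23 (SE 0.193, FDR = 1.32e-05). For both genes every EPS 3h library exceeded every EPS 0h library, and for *Tgfb2* replicates 1 and 2 of EPS 3h lay well above the other 4. *Mmp9*, a gelatinase that remodels matrix, rose from 1.21 to 3.38 RPM to 6.03 to 12.6 RPM (log2FC 2.11, FDR = 1.3e-06), and *Slco2a1*, the prostaglandin transporter, from 0.051 to 0.786 RPM to 4.17 to 12.4 RPM (3.95, FDR = 3.94e-10). *Tnn*, the matrix protein tenascin-N, rose from 0.341 to 1.175 RPM to 5.63 to 17.7 RPM (4.17, FDR = 4.1e-10). It had a log2FC of 1.61 during stimulation that missed the call (FDR = 0.0117), as for some others of this class. *Ppp2r2c*, a regulatory subunit of protein phosphatase 2A, had the largest log2FC of the named genes, 4.74 (FDR = 3.94e-10), from at most 0.3055 RPM at EPS 0h to 2.60 to 11.2 RPM, and its highest library lay far above the rest. *Pvt1*, a long noncoding RNA beside *Myc*, went from 11.5 to 16.1 RPM to 16.85 to 37.0 RPM (1.08, FDR = 1.92e-05). Chosen after their values were seen, *Procr*, the endothelial protein C receptor, rose from 0.904 to 4.79 RPM to 9.23 to 36.8 RPM, *Esr1*, oestrogen receptor alpha, from 6.72 to 11.2 RPM to 16.5 to 32.2 RPM, and *Eif2s2*, the beta subunit of translation factor eIF2, from 317.7 to 436.1 RPM to 550.5 to 1072 RPM (FDR = 9.2e-07, 9.29e-09 and 2.98e-06).

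The AP-1 letters TGANTCA were found in the 300-base window of 51 of 476 genes called higher (10.7%), 23 of 197 newly rising genes (11.7%) and 2 of 48 genes called lower (4.17%), against 5.8% of the 13945 genes tested and 7.14% of all annotated protein-coding genes. The windows of the called risers were also poorer in G and C (median 52%) than those of all genes tested (57.7%), and the part of base composition in these shares was not tested. The 3 protein-coding risers of highest RPM with TGANTCA in these bases are shown with the letters in capitals, again with the genes of a single chromosome left out of the choice.
*P2rx7* (chr5:122781692-122781941, plus strand): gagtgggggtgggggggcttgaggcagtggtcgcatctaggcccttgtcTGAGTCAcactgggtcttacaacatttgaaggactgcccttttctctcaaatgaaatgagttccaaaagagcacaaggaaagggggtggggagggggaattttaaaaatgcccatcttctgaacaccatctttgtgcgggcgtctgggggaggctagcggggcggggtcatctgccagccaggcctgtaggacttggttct
*Ereg* (chr5:91221907-91222156, plus strand): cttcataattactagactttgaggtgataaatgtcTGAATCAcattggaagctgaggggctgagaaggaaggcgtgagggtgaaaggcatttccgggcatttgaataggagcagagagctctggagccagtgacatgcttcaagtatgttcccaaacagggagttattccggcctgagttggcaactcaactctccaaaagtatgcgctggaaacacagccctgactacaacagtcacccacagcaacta
*Crebl2* (chr6:134806867-134807116, plus strand): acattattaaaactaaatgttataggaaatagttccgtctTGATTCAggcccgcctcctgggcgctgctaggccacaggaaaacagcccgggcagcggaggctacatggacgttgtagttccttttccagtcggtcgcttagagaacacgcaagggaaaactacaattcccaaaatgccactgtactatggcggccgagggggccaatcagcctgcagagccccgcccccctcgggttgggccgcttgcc
The letters lie 195, 209 and 204 bases before the start. *Crebl2*, a bZIP protein related to CREB and chosen for this reason, went from 13.1 to 16.2 RPM at EPS 0h to 26.0 to 44.4 RPM at EPS 3h (log2FC 1.35, FDR = 8.63e-10), with 12.3 to 16.01 RPM at Rest. The cyclic AMP response letters TGACGTCA were in 9 of 476 risers (1.89%) and 4 of 48 genes called lower (8.33%), against 3.05% of genes tested. By name, CArG boxes were in 2.73% of risers against 1.38%, MEF2 sites in 4.41% against 2.5%, and NF-kB sites in 8.19% against 9.67%, each motif being sought on both strands.

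The 334 genes that stayed up had a median log2FC of 1.48 during and 0.12 after stimulation. *Clu*, the extracellular chaperone clusterin, went from 3.42 to 8.58 RPM in Rest libraries to 39.6 to 75.0 RPM at EPS 0h (median 54.9) and had 54.2 to 69.6 RPM at EPS 3h (median 61.4), so the stimulated groups overlapped (log2FC 0.14, SE 0.198, FDR = 0.738). *Slc1a7*, a glutamate transporter, had 5.31 to 11.2 RPM at EPS 0h and 7.89 to 12.8 RPM at EPS 3h after 0.215 to 0.889 RPM at Rest, and *Fndc8* had 9.32 to 21.5 and 8.66 to 23.9 RPM after 1.13 to 3.09 RPM. *P4ha1*, a subunit of collagen prolyl 4-hydroxylase, had 614.5 to 801.6 and 739.4 to 1009 RPM (log2FC 0.24, FDR = 0.0662). Chosen after their values were seen, *Atf3*, a stress-induced CREB family factor, had 391.2 to 473 RPM at EPS 0h and 464.8 to 553.4 RPM at EPS 3h against 139.5 to 213.7 RPM at Rest, and *Nr4a1*, an orphan nuclear receptor, had 128.4 to 200.7 RPM and 142.2 to 195.4 RPM against 40.5 to 86.9 RPM. The 158 genes that stayed down had a median log2FC of -1.23 during and -0.16 after stimulation. *Aldh3a1*, an aldehyde dehydrogenase, went from 91.2 to 123.8 RPM in Rest libraries to 14.05 to 22.8 RPM and had 14.9 to 37.4 RPM at EPS 3h. *Sema4c*, a transmembrane semaphorin, went from 61.3 to 74.2 RPM to 10.7 to 18.2 RPM and had 8.30 to 29.5 RPM, and *Emilin1*, an elastic fibre glycoprotein, from 5.28 to 8.88 RPM to 0.832 to 1.89 RPM and had 0.609 to 1.59 RPM. For these 3 genes the log2FC after stimulation ran from -0.25 to 0.40 with an FDR of at least 0.275.

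The 14 recovering genes had a median log2FC of -1.37 during and 1.55 after stimulation, which left them 0.15 above Rest. *Psrc1*, a microtubule protein of the mitotic spindle, went from 7.20 to 9.77 RPM in Rest libraries to 2.83 to 4.72 RPM at EPS 0h and 7.27 to 16.1 RPM at EPS 3h, without overlap between the stimulated groups (log2FC 1.52, SE 0.207, FDR = 1.18e-06). *Btg2*, an antiproliferative immediate early gene and p53 target (chromosome 1, 134002908 to 134015033), went from 43.8 to 67.4 RPM (median 58.2) to 17.2 to 35.8 RPM (median 25.8) and 33.5 to 74.1 RPM (median 48.7). Its 2 stimulated groups overlapped by 1 library each, and the log2FC was 1.03 (SE 0.175, FDR = 4.04e-05). *Nell2*, a secreted protein with EGF-like repeats, went beyond Rest, with 1.25 to 3.74 RPM at Rest, at 0.823 to 1.75 RPM at EPS 0h and 6.03 to 16.7 RPM at EPS 3h, a log2FC of 3.25 (FDR = 3.41e-09) that left it 2.18 above Rest (FDR = 1.35e-07). A further 41 genes not called at EPS 0h rose without a called rise above Rest, such as *Slc6a19*, a neutral amino acid transporter (10.7 to 19.5 RPM at EPS 0h, 23.2 to 85.8 RPM at EPS 3h, log2FC 1.70), and the ubiquitin ligase genes *Marchf10* (1.55) and *Neurl3* (1.46), with an FDR of 0.00117 or less. For *Neurl3* the log2FC was 2.03 over replicates 1 to 3 and 0.74 over replicates 4 to 6.

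The 26 newly falling genes had a median log2FC of -0.54 during and -1.21 after stimulation, so some had moved down before without passing the size limit, and the 7 that fell further -1.12 and -1.06. *Irf1*, interferon regulatory factor 1 (chromosome 11, 53660812 to 53669200), was at 57.0 to 101.1 RPM at Rest (median 60.6), 24.9 to 37.3 RPM at EPS 0h (median 34.1) and 8.665 to 16.7 RPM at EPS 3h (median 10.7). The 3 groups did not overlap, and the log2FC of -1.50 after stimulation (SE 0.145, FDR = 2.41e-09) exceeded the -1.02 during it. *Prr33* also fell at both stages, from 4.78 to 7.32 RPM to 2.00 to 4.07 RPM after stimulation (log2FC -1.01, FDR = 0.0041). *G0s2*, an inhibitor of adipose triglyceride lipase (chromosome 1, 192949563 to 192956177, minus strand), was at 26.7 to 34.7 RPM at Rest, at 11.6 to 28.5 RPM at EPS 0h (median 16.9) and 2.10 to 4.66 RPM at EPS 3h (median 3.32), the largest called fall (log2FC -2.54, SE 0.242, FDR = 1.81e-09). *Id3*, an inhibitor of myogenic bHLH factors and a BMP target (chromosome 4, 135870808 to 135873066), was at 82.2 to 118.3 RPM, 34.6 to 91.0 RPM (median 59.9) and 20.2 to 29.4 RPM (median 25.9), a log2FC of -1.23 (SE 0.185, FDR = 5.63e-06). For *G0s2* and *Id3* every EPS 3h library lay under every EPS 0h library. Stimulation had already lowered *Id3* (log2FC -0.80, FDR = 0.000558). *Rem1*, a small GTPase of the family that inhibits calcium channels, had 25.65 to 32.6 RPM at Rest and fell from 15.7 to 25.6 RPM to 6.92 to 11.9 RPM (-1.20, FDR = 2.76e-07), *Ap5s1*, of the AP-5 adaptor complex, which had 17.2 to 28.7 RPM at Rest, from 8.42 to 14.2 RPM to 3.10 to 5.78 RPM (-1.40, FDR = 1.51e-07), and *Xrcc3*, a gene of homologous recombination, which had 14.35 to 22.4 RPM at Rest, from 9.89 to 15.8 RPM to 3.67 to 6.47 RPM (-1.31, FDR = 2.37e-06). Of the 10 genes that fell without a called difference below Rest, *Adora2b*, the adenosine A2B receptor, went from 11.4 to 14.4 RPM to 3.54 to 7.69 RPM (-1.22, FDR = 4.08e-07) and the histone gene *H4c14* from 3.72 to 6.84 RPM to 1.71 to 2.77 RPM (-1.29, FDR = 8.08e-05).

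Gene structure was described from the annotation, with no test. The protein-coding genes called lower had a median span of 9.19 kb and 3 exons in the canonical transcript, those called higher 35.6 kb and 10 exons, and all protein-coding genes tested 26.6 kb and 9 exons. Among the newly rising genes the median was 46.2 kb and 12 exons, and 0 of 147 had a single exon, against 1.97% of genes tested. The genes that stayed up spanned 30.4 kb and the genes rising further 28.5 kb. The AU-rich nonamer TTATTTATT, a mark of unstable mRNA, was in the 3' untranslated region of 2 of 33 genes called lower (6.06%), 28 of 333 called higher (8.41%) and 9.12% of genes tested. A gene of at least 5 RPM ended on the same strand within 10 kb before 68 of 476 risers (14.3%) and 75 of 332 genes that stayed up (22.6%), against 17.2% of genes tested. Protein-coding genes made up 156 of the 231 genes rising further (67.5%) and 260 of the 334 that stayed up (77.8%).

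Other gene lists were counted beside the shares of all genes tested at an FDR under 0.05, 9.67% higher and 6.88% lower. The interferon, calcium handling, metabolism, cholesterol, sarcomere and matrix lists lay under both shares. The hypoxia and chromatin lists had no rises and a share of falls not far above that of all genes. Counts like these are not results about the lists. Of 37 immediate early transcription factors, 11 rose and 6 fell (median log2FC 0.11). The risers were *Btg2*, *Fosl1*, *Csrnp1*, *Egr2*, *Jun*, *Egr1*, *Btg1*, *Mafk*, *Klf6*, *Arid5a* and *Maff*, and the fallers *Ier5l*, *Snai1*, *Bhlhe40*, *Klf10*, *Jund* and *Zfp36l1*. *Jun* went from 546.2 to 707.6 RPM at EPS 0h to 863.9 to 1147 RPM at EPS 3h (log2FC 0.71, FDR = 4.16e-06), while *Fos* had 47.6 to 73.7 and 57.3 to 66.8 RPM (0.05, FDR = 0.868). Of 18 MAP kinase phosphatases and feedback inhibitors, 4 rose and 4 fell: *Dusp10*, *Spry2*, *Dusp5* and the EGF receptor inhibitor *Errfi1* (93.0 to 124.0 to 117.6 to 177.8 RPM, log2FC 0.50, FDR = 0.00118) against *Dusp14*, *Dusp2*, *Spry1* and *Dusp1*. Of 19 NF-kB genes, the inhibitors *Nfkbia* and *Nfkbie* fell (log2FC -0.97 and -0.72, FDR = 8.36e-07 and 0.0317) and the atypical inhibitor *Nfkbid* rose from 2.63 to 4.09 RPM to 8.81 to 12.7 RPM (1.63, FDR = 1.31e-05). Of 35 cytokines, chemokines and growth factors, 4 rose, among them *Ereg*, *Tgfb2* and *Areg*, and 3 fell (*Metrnl*, *Wnt9a* and *Vegfa*). *Il6*, a myokine, had 5.56 to 10.6 and 4.61 to 10.1 RPM (-0.35, FDR = 0.311). Of 22 interferon response genes, *Irf1* passed, and it fell. With a block for replicates 1 to 3 against 4 to 6, the falls were 4 among NF-kB genes, 7 among cytokines and growth factors and 2 among interferon response genes.

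**Figure D4:**
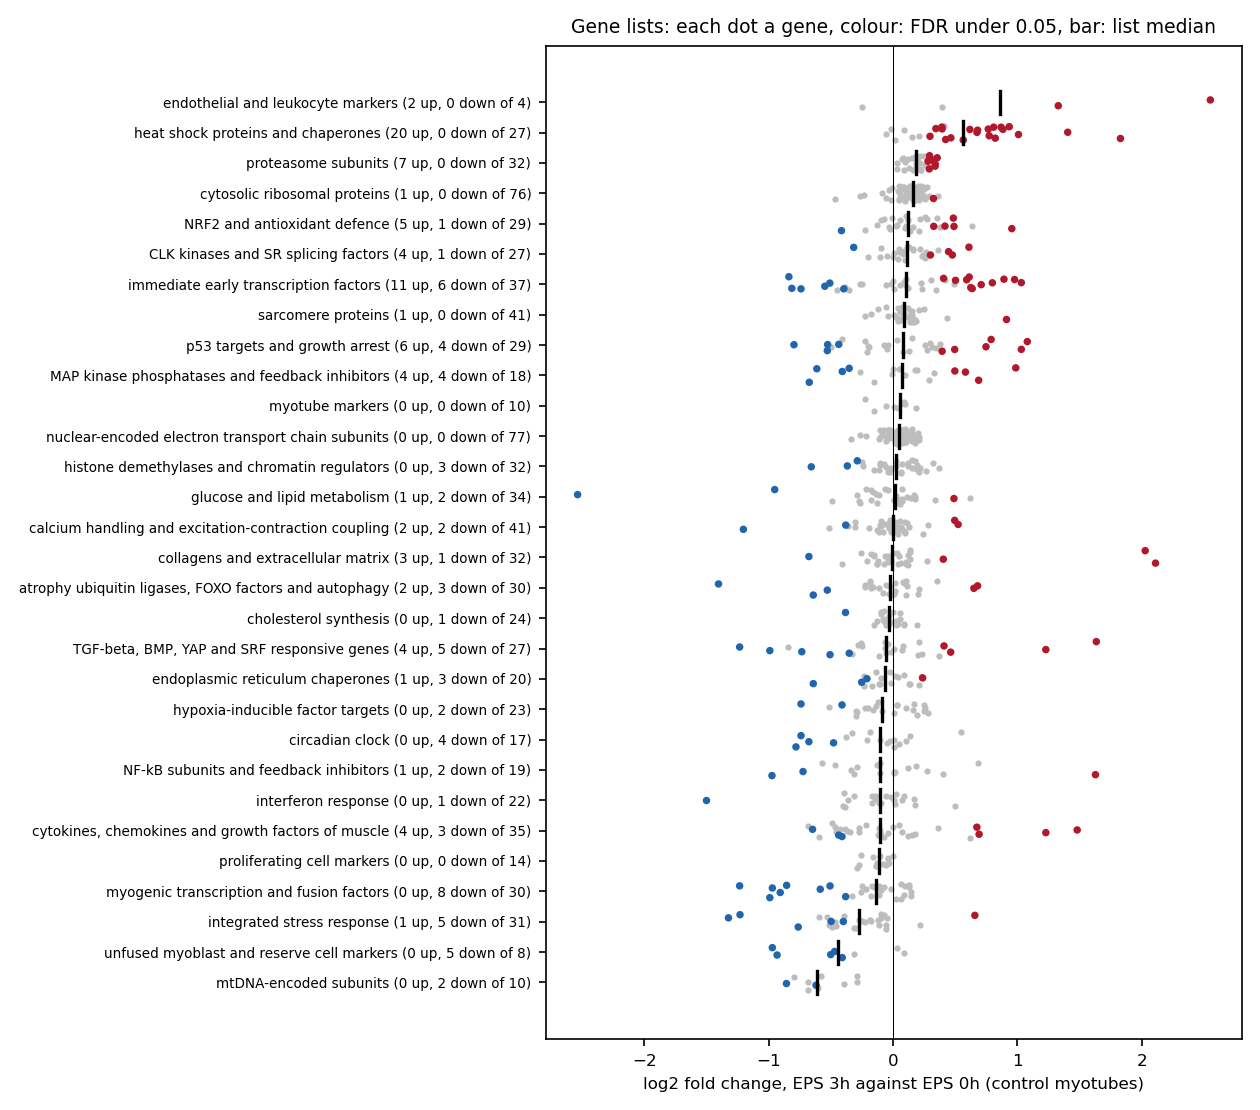
Log2FC from EPS 0h to EPS 3h (x axis) of each tested gene of the 30 lists, red or blue where the FDR is under 0.05, with a bar at the list median. Heat shock genes lie to the right (median 0.56, 20 of 27 higher), and mtDNA-encoded subunits (-0.61), unfused myoblast markers (-0.44) and integrated stress response genes (-0.27) to the left.

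Of 31 integrated stress response genes 5 fell (*Trib3*, *Chac1*, *Vldlr*, *Gpt2* and *Stc2*) and 1 rose, *Ppp1r15a*, which recruits the phosphatase that ends the response (log2FC 0.66, FDR = 2.41e-05). The falls numbered 12 when libraries were scaled by their totals alone and 11 with the block for replicate sets. The median was -0.27, and at EPS 0h 13 of the 31 had been higher than at Rest. *Trib3*, a pseudokinase induced by CHOP, had 66.3 to 257.3 RPM at EPS 0h and 33.7 to 80.0 RPM at EPS 3h (log2FC -1.32, FDR = 0.00184), with overlap. Of 20 endoplasmic reticulum chaperones, 1 rose (*Hspa5*, BiP) and 3 fell (*Herpud1*, *Sel1l* and *Pdia4*). *Calr*, a lectin chaperone, was at 580.2 to 835.3 and 553.5 to 791.9 RPM. Of 29 NRF2 and antioxidant genes, 17 had been lower than at Rest at EPS 0h, and from there 5 rose (*Txnrd1*, *Me1*, *Gclm*, *Prdx1* and *Prdx6*) and 1 fell (*Nfe2l2*), or 3 rose without EPS 3h replicate 3. *Hmox1* was at 1267 to 2762 and 1449 to 3350 RPM (log2FC 0.25, FDR = 0.595). Of 29 p53 targets and growth arrest genes, 6 rose (*Pvt1*, *Btg2*, *Zmat3*, *Plk2*, *Mdm2* and *Eda2r*) and 4 fell (*Fas*, *Gadd45a*, *Gadd45b* and *Tigar*). Proteasome subunits gave 7 rises and 0 falls of 32, all under 0.36 on the log2 scale, 3 rises without EPS 3h replicate 3 and 12 with the block for replicate sets, while *Psmc3* was at 530.1 to 609.3 and 525.3 to 705 RPM.

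Few genes of the contractile apparatus passed. Of 41 sarcomere proteins, 1 rose, *Xirp2*, an actin-binding protein with Xin repeats (log2FC 0.91), and of 10 myotube markers 0 passed. *Acta1*, skeletal actin, was at 3338 to 4351 and 3294 to 4759 RPM. Of 30 myogenic transcription and fusion factors, 0 rose and 8 fell, among them *Id3*, *Id1*, *Myf5*, *Sox8*, *Six5*, *Myod1* and *Id2*. These include factors that promote myogenesis and *Id* genes that oppose it. At EPS 0h, 9 of the 30 had been higher and 6 lower than at Rest, and the list median from Rest to EPS 3h was -0.01. *Myod1* went from 79.0 to 98.4 RPM at EPS 0h to 55.4 to 66.3 RPM at EPS 3h (-0.59, FDR = 4.11e-06) without overlap, while *Myog* was at 834.3 to 1011 and 732.8 to 1136 RPM (-0.15, FDR = 0.426). Of 8 unfused myoblast and reserve cell markers tested, 5 fell (*Myf5*, *Pax7*, *Heyl*, *Hey1* and *Spry1*). At EPS 0h, 4 of the 8 had been higher and 0 lower than at Rest. The list median was 0.42 from Rest to EPS 0h and 0.05 from Rest to EPS 3h, so as a list they returned near Rest. The most abundant of the 8, the proteoglycan gene *Sdc4*, did not pass. It was at 200 to 241.1 RPM at EPS 0h and 197.2 to 272.8 RPM at EPS 3h (log2FC 0.09, FDR = 0.748). The summed level of these markers, given above, includes *Sdc4* and overlapped between the groups. The part of such cells in the fall of the myogenic factors was not tested. Of 41 calcium handling genes, *Stim1* and *Rcan1* rose and *Rem1* and *Orai1* fell. Of 34 glucose and lipid metabolism genes, *Gbe1*, the glycogen branching enzyme, rose and *G0s2* and *Ppp1r3c* fell, and of 24 cholesterol synthesis genes *Sqle* fell while their regulator *Srebf2* was at 311.8 to 424.2 and 283.2 to 413 RPM. Of 30 atrophy, FOXO and autophagy genes, *Atg12* and *Bag3* rose and *Klf15*, the ubiquitin ligase gene *Fbxo32* and *Gadd45a* fell. Of 17 clock genes, *Dbp*, *Bhlhe40*, *Bhlhe41* and *Nr1d1* fell and 0 rose, and of 23 hypoxia targets *Bhlhe40* and *Vegfa* fell. *Bhlhe40*, a repressor of the clock, went from 233.9 to 261.9 RPM to 99.75 to 206.9 RPM (-0.74, FDR = 0.000463). Of 27 genes responsive to TGF-beta, BMP, YAP or SRF, 4 rose (*Bambi*, *Tgfb2*, *Lats2* and *Ccn1*) and 5 fell (*Id3*, *Id1*, *Nog*, *Id2* and *Actb*). *Bambi*, a pseudoreceptor that blocks TGF-beta signals, went from 0.731 to 1.99 RPM to 2.99 to 4.98 RPM (1.63, FDR = 3.88e-05). With the block for replicate sets, 4 metabolism genes, 4 hypoxia targets and 8 genes of the TGF-beta list fell.

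Of 77 nuclear-encoded electron transport chain subunits 0 passed in either direction, with a median log2FC of 0.05, and *Atp5b* was at 1551 to 1835 and 1587 to 1949 RPM. The 10 mtDNA-encoded subunits tested, of 13 in the file, had a median of -0.61, with 2 that fell (*mt-Nd1* and *mt-Cytb*), but *mt-Co1* had 5745 to 8791 and 4959 to 7555 RPM (-0.29, FDR = 0.393). Scaling by library totals alone gave 5 falls, and the block for replicate sets 6. Of 76 cytosolic ribosomal proteins, *Rps13* rose, and *Rplp0* was at 1300 to 1924 and 1439 to 2038 RPM. In replicates 1 to 3 alone 21 rose and in replicates 4 to 6 alone 0. Of 27 CLK kinases and SR proteins, *Tra2b*, *Srsf11*, *Tra2a* and *Srsf7* rose and *Clk2* fell, while *Son* was at 383.5 to 505.1 and 417 to 574.4 RPM. Of 32 chromatin regulators, *Hexim1*, *Hdac4* and *Kdm4a* fell, while *Brd2* was at 290.1 to 354.9 and 302.3 to 398.4 RPM. Of 32 collagen and matrix genes, *Mmp9*, *Col15a1* and *Adamts1* rose and *Adamts4* fell. *Col15a1*, a basement membrane collagen, went from 3.355 to 4.68 RPM to 8.23 to 23.2 RPM (2.03, FDR = 1.64e-08). Of 14 proliferation markers 0 passed, and *Mki67* was at 46.6 to 72.4 and 41.15 to 77.1 RPM. Of 4 endothelial and leukocyte markers tested of 10 in the file, *Kdr*, a VEGF receptor, rose from 0.390 to 1.13 RPM to 1.47 to 6.48 RPM and *Pecam1* from 0.303 to 1.42 RPM to 1.31 to 2.75 RPM (FDR = 4.49e-07 and 0.00463). The whole marker list summed to 7.10 to 8.62 RPM at EPS 0h and 9.28 to 18.9 RPM at EPS 3h, and 1 of the 10 was at 0 in all EPS 0h libraries and 0 of 10 in all EPS 3h libraries. Their part in other results was not tested.

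The *Tug1* KD libraries, which shared the filter and the estimate of the spread but not the contrasts above, give the same 3 h in other wells transfected with an LNA against the long noncoding RNA *Tug1*. All 486 genes called higher in control myotubes had a positive log2FC there and all 48 called lower a negative one, where 47.1% of all genes tested had a positive log2FC. At an FDR under 0.05, 471 of the 486 and 42 of the 48 passed in the same direction, against 8.59% of genes tested that rose and 7.13% that fell in *Tug1* KD myotubes. The filter forces part of this, since a gene near 0 at Rest and EPS 0h is tested only if both EPS 3h groups are high. Of the called genes that reach 1 RPM in 12 of the 24 libraries other than the stimulated *Tug1* KD ones, 262 of 262 risers and 43 of 43 fallers shared the sign, and 255 and 39 passed. For the risers the median log2FC was 1.58 in the control and 1.64 in the knockdown, and for the fallers -1.22 and -1.1. The change was 1.90 for *Hspa1a*, 0.93 for *Hspd1*, 0.87 for *Tgfb2*, -1.22 for *Chac1*, -2.68 for *G0s2* and -0.89 for *Id3* in *Tug1* KD myotubes. The difference between the recovery changes passed an FDR of 0.05 for 0 genes (0%) with edgeR, and likewise for 0 genes with DESeq2 and limma-voom. With edgeR, 137 of the 13995 genes had an unadjusted p under 0.05. That is a smaller share than the 0.05 that evenly spread p values would give, so the test was conservative. A count of 0 therefore does not show that recovery was the same with both LNAs. The median standard error of the difference between the recovery changes was 0.206, and single-gene differences several times that size did not pass. *Serpinb2* had a log2FC of 3.06 with the control LNA and 1.79 with the *Tug1* LNA (difference -1.27, SE 0.448, FDR = 1), and *Uncx* 3.72 and 4.67 (0.95, SE 0.511, FDR = 1). *Tug1* itself was at 55.05 to 80.6 RPM when stimulation ended and 54.6 to 107 RPM after recovery (log2FC 0.27, FDR = 0.332).

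**Figure D5:**
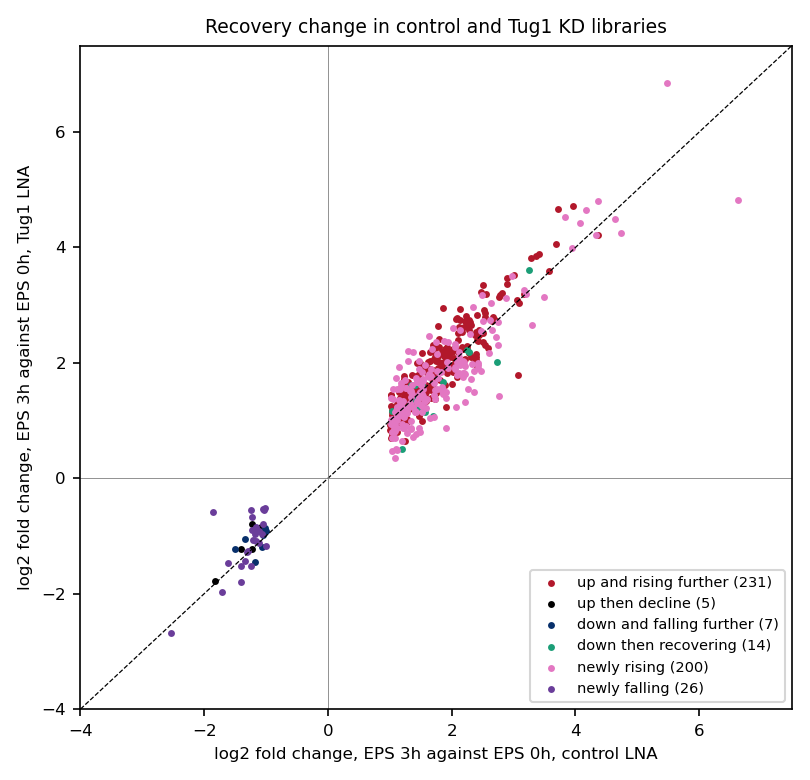
Log2FC from EPS 0h to EPS 3h in control (x axis) and *Tug1* KD (y axis) myotubes for genes called in control, coloured by class, with the line of equality dashed. Every called gene lies on the same side of 0 on both axes. The difference between the LNAs passed an FDR of 0.05 for 0 genes, in a test that was conservative.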

How the data were processed

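The authors trimmed reads with fastp 0.14.1, checked them with FastQC 0.11.7 and aligned them with STAR 2.5 to GRCm39, and the deposited values are whole-number counts per gene for 55416 genes, without normalization. The counter and its strand setting are not given in the sources used here. Rows without a gene name (1492) held 0.0327% of the counts. The filter asked for 1 RPM or more in 12 of the 36 libraries and left 13995 genes. Counts were scaled by TMM, and robust quasi-likelihood models of edgeR 4.0.16 (R 4.3.3) took in the 6 groups together. The standard error is the log2FC divided by the square root of its F statistic, and FDR values are Benjamini-Hochberg adjusted over all genes tested. The script was tested on simulated data. Spike-in counts were not used here. P values measure the spread between wells, with differences between experiments in it, since the main fit had no term for the experiment. The 6 wells of a group are not 6 independent experiments.

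The members, the lists and the naming rule were chosen with earlier results of these data known. Named were, per class, the 3 largest changes among protein-coding genes without a clone name, of 5 RPM or more in the higher of the groups, and without overlap, and per list up to 2 called rises and 2 called falls of at least 1 RPM, or else the most abundant member. Replicate numbers did not pair libraries. Gene features were read from GENCODE (GRCm39), where 13946 of the genes tested were found (99.6%). Alternatives were DESeq2 1.42.0, limma-voom (limma 3.58.1), other scalings and filters, glmTreat, blocks, subsets of libraries and, chosen after seeing the data, a fit without EPS 3h Control replicate 3. Some list members that were counted are not reported by name here.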

Additional observations from a re-analysis of the deposited data

Results flagged for a closer look

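Of 112 groups of 6 libraries (56 named genes at EPS 0h and EPS 3h), 3 held a library whose gap to the nearest exceeded Dixon's 95% critical value, and chance flags about 1 in 20. *Ppp2r2c* was at 11.24 RPM in EPS 3h Control replicate 1, where the next library had 5.51 RPM, and at 0 RPM in EPS 0h Control replicate 2, where the next had 0.195 RPM. *Brd2* was at 302.3 RPM in EPS 3h Control replicate 2, and the next library had 370.6 RPM. None of these lay in EPS 3h Control replicate 3.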

How the results depend on the processing

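Under DESeq2 519 genes were called higher and 58 lower, with 22 recovering, and under limma-voom 447 and 44. Scaling by library totals alone moved the median log2FC by -0.093 and gave 429 higher and 90 lower (82.7% higher), 8 declining, 19 falling further and 48 newly falling genes, and at an FDR under 0.05 1031 higher and 1752 lower. Without a filter on low counts there were 1077 higher, 94 lower, 11 declining, 13 falling further, 669 newly rising and 46 newly falling, and with at least 10 counts in 6 libraries 930, 89, 10, 12, 514 and 46, with 22 recovering. The compared groups alone gave 31 lower and 4 falling further. Replicates 4 to 6 alone gave 286 higher, 118 rising further, 3 recovering, 86 persistently lower and 11 falling further. A test against the fold limit itself (glmTreat) left 119 higher, 1 lower, 0 declining, 113 persistently higher, 47 rising further, 1 recovering, 13 persistently lower, 0 falling further, 68 newly rising and 1 newly falling, since each fold must then exceed 2 with error. Without EPS 3h Control replicate 3 there were 466 higher, 39 lower and 3 declining. Apart from glmTreat and the filters, whose construction changes the genes or hypothesis tested, the cause was not tested.

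Replicate numbers did not pair the libraries: correlations of same-numbered deviations ran from -0.029 to 0.696, and 2 of 6 libraries correlated best with their own number. With the replicate block there were 531 higher, 60 lower, 9 declining and 23 recovering genes, and with a block for replicates 1 to 3 against 4 to 6 there were 8 declining.

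Of the 56 named genes, 8 differed in sign between replicates 1 to 3 and 4 to 6, and 0 of these had passed an FDR of 0.05 (*Clu* 0.45 and -0.14, *Rplp0* 0.36 and -0.10). Of the genes that had passed, *Prr33*, *Errfi1* and *Pecam1* lost significance in replicates 1 to 3 alone and *Neurl3* in replicates 4 to 6 alone. The median standard error of a single gene's log2FC was 0.145, and genes with a larger one could change more without passing, such as *Sema4c* (log2FC 0.40, SE 0.23, FDR = 0.275). At the lowest levels 3 counts, about 0.15 RPM, set a limit.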
